A study of Mus musculus with 33 samples.

Results

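Regulatory T cells (Treg) of the colon that carried ST2 were compared between the gate that also carried the TSLP receptor (TSLPR+ST2+) and the gate that did not (TSLPR-ST2+), in mice with colitis-associated cancer. The libraries were found by their titles: of 33 libraries in the series, 4 are TSLPR+ST2+ and 4 are TSLPR-ST2+ Treg of cancer mice, a pair from each of mice 5, 6, 7 and 8. The contrast asks what sets TSLPR-bearing cells apart among ST2+ Treg of the diseased colon. All mice carried a Foxp3 YFP reporter on the B6 background, and all 32 Treg libraries were sorted from colon as CD45+, TCR+, CD4+ and Foxp3+ cells, with 200 cells in a library. Cancer mice had received azoxymethane (a colon carcinogen, 10 mg/kg, injected) and 3 cycles of dextran sulfate sodium (a detergent-like sugar polymer that injures the colon lining) given for 7 days at a time, and colons were collected 2 weeks after the final dose. Naive mice 1 to 4 gave the same gates, and 4 TSLPR+ST2- and 4 TSLPR-ST2- libraries came from cancer mice 5 to 8. The labels do not say whether naive mice had a mock treatment. The remaining library, of naive Foxp3- cells, was not used here. No group received the carcinogen or the polymer alone, so effects of tumours, colitis and chemicals cannot be told apart. Mice were 7 to 12 weeks old when purchased, per the labels.

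TSLP is a cytokine made by barrier epithelium. Its receptor pairs TSLPR, the product of Crlf2, with the IL-7 receptor chain and signals through JAK kinases and STAT5. IL-33 is an alarmin that is released from damaged cells, binds ST2, the product of Il1rl1, and signals through MyD88. ST2 marks an effector type of tissue Treg that is abundant in the colon, where such cells are known for amphiregulin, KLRG1 and a role in repair. T cells that settle in tissue lower Klf2, the transcription factor that maintains S1pr1, the exit receptor for lymphoid organs.

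Library totals were 4038718, 4924172, 4869433 and 5816224 counts in the TSLPR+ST2+ libraries of mice 5, 6, 7 and 8, against 7589967, 5391026, 6854672 and 7342786 counts in the TSLPR-ST2+ libraries. Each mouse had the smaller total in the TSLPR+ST2+ gate, and the ranges of the gates overlapped. The mitochondrial share of counts was 2.83%, 2.42%, 3.23% and 1.43% in TSLPR+ST2+ and 0.958%, 1.64%, 1.42% and 0.986% in TSLPR-ST2+ libraries, so it was higher in the TSLPR+ST2+ gate of 4 of 4 mice. Both measures had p = 0.0571 in an exact two-sided permutation test of 4 against 4 libraries, in which the smallest possible p is 0.0286. This test left the pairing of libraries by mouse unused. T cell identity was checked with 9 genes, all counted in all 8 libraries. By edgeR 0 of the 9 passed, 4 had an unadjusted p under 0.05 (3 higher and 1 lower), and DESeq2 called 3 higher. Cd3e, a chain of the T cell receptor complex, lay between 630.3 and 729 CPM (counts scaled to a common library total) in TSLPR+ST2+ libraries and between 486 and 728 CPM in TSLPR-ST2+ libraries. Cd4 leaned the other way, at 214.6 to 300.4 CPM in TSLPR+ST2+ and 295.1 to 513.8 CPM in TSLPR-ST2+ libraries. So did Trbc1 (563.7 to 736.1 against 634 to 867.1 CPM) and Trbc2 (525.3 to 781.4 against 735.4 to 825.3 CPM), all with overlapping gates.

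Markers of other cell types differed between the gates. Of 14 epithelial markers, summed levels were 646, 329, 18364 and 193 CPM in TSLPR+ST2+ libraries, against 81.6, 54.2, 154 and 107 CPM in TSLPR-ST2+ libraries. The TSLPR+ST2+ library of mouse 7 stood apart: its Epcam, an epithelial adhesion molecule, had 730 TMM-scaled CPM and its Car1, a carbonic anhydrase of colonocytes, 9073 TMM-scaled CPM, and no epithelial marker was at 0 in all 8 libraries. The 12 B and plasma cell markers summed to 2688, 3483, 2296 and 2795 CPM in TSLPR+ST2+ and to 1626, 1643, 1396 and 1635 CPM in TSLPR-ST2+ libraries. The 16 macrophage and dendritic cell markers, among which Itgam was at 0 in all 8 libraries, summed to 3005, 5397, 6964 and 2927 CPM in TSLPR+ST2+ and to 770.0, 2299, 1122 and 2798 CPM in TSLPR-ST2+ libraries. Within this sum Cd74, H2-Aa and H2-Ab1 were apart between the gates. Cd74 lay between 1334 and 2560 CPM in TSLPR+ST2+ and between 142 and 897 CPM in TSLPR-ST2+ libraries. Lyz2 leaned the other way, at 159 to 499 CPM against 219 to 1622 CPM. C1qa, C1qb, C1qc and Csf1r overlapped, so the sum does not describe every marker in it. The sum of 12 helper cytokine genes ran the other way, at 71.6, 88.5, 78.7 and 84.6 CPM in TSLPR+ST2+ and 173, 128, 162 and 122 CPM in TSLPR-ST2+ libraries. Most of this sum came from Tnf and Cd40lg. Tnf lay between 26.5 and 38.6 CPM in TSLPR+ST2+ and between 38.7 and 68.7 CPM in TSLPR-ST2+ libraries. Cd40lg lay between 33.35 and 43.26 CPM, against 58.99 to 113.2 CPM. The other members were mixed. Ifng and Il4 reached 8.625 and 9.112 CPM in TSLPR+ST2+, against 0.817 and 5.534 CPM, while Il21 reached 0.609 against 16.88 CPM. Il5, Il13, Il17a and Il22 were at 0 in all 8. The gates did not overlap in these 4 sums, each with exact permutation p = 0.0286 (0.0929 after Benjamini-Hochberg adjustment over 13 library measures). The value 0.0286 is the smallest that an unpaired test of 4 against 4 libraries allows, and the pairing by mouse was not used. In naive mice the ST2+ gates were also apart in the epithelial sum, at 153 to 389 CPM in TSLPR+ST2+ and 42.4 to 87.2 CPM in TSLPR-ST2+ libraries. So were the B and plasma cell sums (2202 to 3332 against 1071 to 1395 CPM). The macrophage and dendritic cell sums and the helper cytokine sums overlapped there. In bulk libraries, fewer cells with a transcript and less of it in each cell cannot be told apart.

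**Figure D1:**
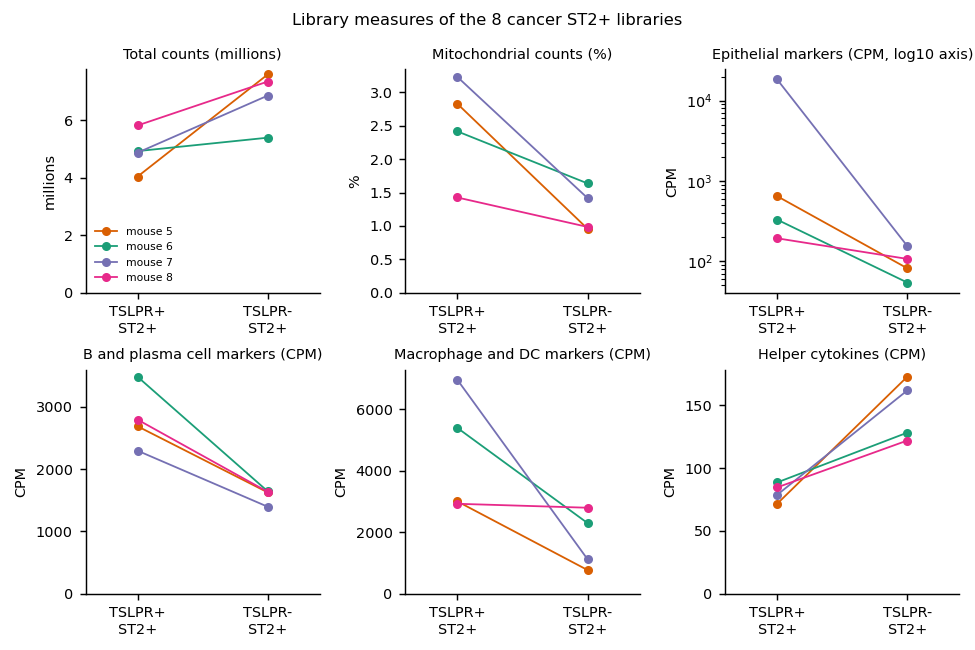
Library measures of the 8 cancer ST2+ libraries, by gate (x axis) and mouse (colour), with a line joining the gates of a mouse. The epithelial sum is on a log10 axis, where the TSLPR+ST2+ library of mouse 7 reaches 18364 CPM, while the other TSLPR+ST2+ libraries lie between 193 and 646 CPM.

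The sort genes were examined by mouse. Crlf2, which encodes TSLPR (chromosome 5, 109554709 to 109558993, - strand, GRCm38), had 102, 165, 131 and 321 counts in the TSLPR+ST2+ libraries of mice 5 to 8, or 25.2, 32.9, 29.7 and 54.2 CPM scaled by TMM factors, as for all genes below, against 228, 75, 137 and 158 counts, or 30.5, 13.6, 19.8 and 21.8 CPM, in TSLPR-ST2+ libraries. It was higher in the TSLPR+ST2+ gate of mice 6, 7 and 8 and lower in that of mouse 5, so the gates overlapped. The log2 fold change was 0.73 ± 0.26 (SE) and did not pass (edgeR quasi-likelihood test, Benjamini-Hochberg adjusted p = 0.121). In mouse 5, therefore, Crlf2 RNA goes against the labels of the library labelled TSLPR+ST2+ and the library labelled TSLPR-ST2+, while the cells were gated on the receptor protein. Without the ST2+ libraries of mouse 5 the log2 fold change of Crlf2 was 1.09 (edgeR adjusted p = 0.0531). A rise was bound to follow from leaving out the mouse that ran against the gates, so it is no support for a difference. With all mice, Crlf2 passed in DESeq2 (adjusted p = 0.0480) and in edgeR with a mitochondrial covariate (log2 fold change 1.24, adjusted p = 0.0407). In naive mice Crlf2 passed, at 43.0, 53.2, 57.2 and 39.1 CPM in TSLPR+ST2+ against 17.0, 12.8, 19.0 and 17.3 CPM in TSLPR-ST2+ libraries (edgeR adjusted p = 0.00113). The difference of these contrasts did not pass (-0.81 ± 0.37 on the log2 scale, adjusted p = 0.38).

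Il1rl1, the ST2 gene (chromosome 1, 40429570 to 40465415, + strand), had 200.2, 182, 158 and 199.5 CPM in TSLPR+ST2+ and 165, 103, 179.7 and 95.6 CPM in TSLPR-ST2+ libraries. Both gates were sorted as ST2+ and their levels overlapped (log2 fold change 0.45 ± 0.70, edgeR adjusted p = 0.816). Foxp3, the lineage factor of Treg (chromosome X, 7573644 to 7595245, + strand), had 85.1, 59.9, 96.0 and 122 CPM in TSLPR+ST2+ and 105, 99.6, 106 and 110.2 CPM in TSLPR-ST2+ libraries, without passing (adjusted p = 0.682). Other genes of mouse 5 followed the gates: of 62 genes that were higher and 89 that were lower in a fit without mouse 5, 60 higher and 77 lower genes had the same direction in mouse 5 (96.8% and 86.5%), against 55.5% of all genes tested, counted by the sign of their fold change in the other mice. When mouse 6 was left out in the same way the shares were 71.9% of the higher and 67.5% of the lower genes, against 51.3% of all genes. They were 78.9% and 81.5% in mouse 7 and 72.8% and 83% in mouse 8, against 54.5% of all genes in each.

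**Figure D2:**
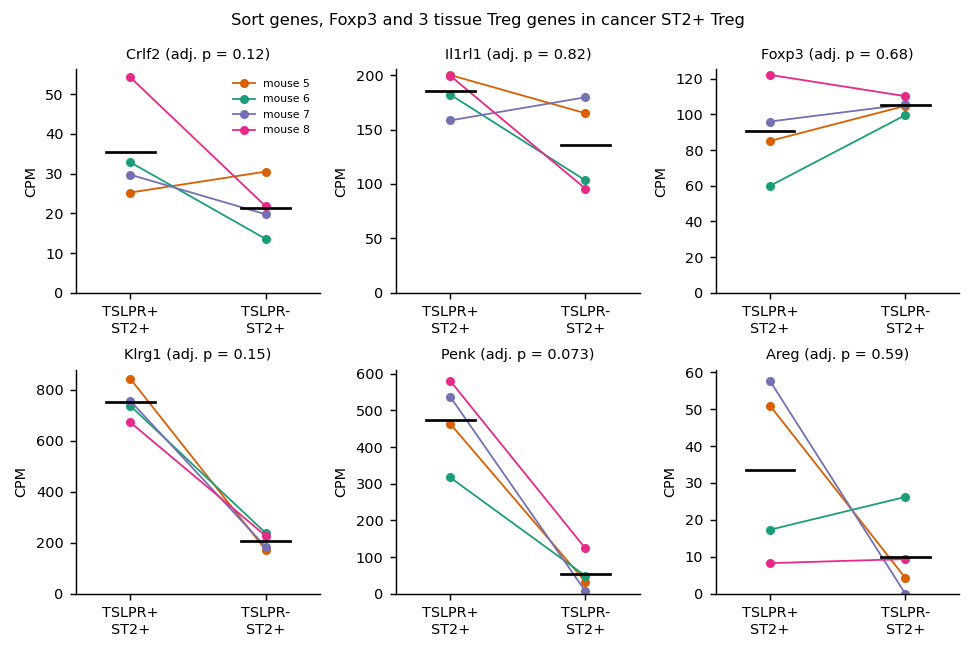
TMM-scaled CPM of 6 genes in cancer ST2+ Treg by gate (x axis) and mouse (colour), with black bars for the mean of 4 libraries and the adjusted p of the edgeR test over all genes. Crlf2 runs against the gates in mouse 5, while Klrg1 and Penk, chosen after their values were seen, separate the gates in every mouse without passing.

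Klrg1, a lectin-like receptor of effector Treg chosen for mention after its values were seen, had 843, 737, 757 and 672 CPM in TSLPR+ST2+ and 172, 238, 184 and 227 CPM in TSLPR-ST2+ libraries. Every TSLPR+ST2+ library lay above every TSLPR-ST2+ library, mouse 5 included. The log2 fold change was 1.87 ± 0.72 and did not pass in the fit of all 32 Treg libraries (edgeR adjusted p = 0.154), but it passed with only these 8 libraries (1.89 ± 0.14, adjusted p = 0.000889). Penk, which encodes the opioid precursor proenkephalin, was likewise picked after its values were seen and had 463, 317, 537 and 581 CPM in TSLPR+ST2+ against 32.2, 48.4, 6.20 and 123 CPM in TSLPR-ST2+ libraries. It did not pass either (3.17 ± 0.98, adjusted p = 0.0733; 0.133 with 8 libraries). Areg, the repair factor amphiregulin, had 51.0, 17.3, 57.6 and 8.28 CPM in TSLPR+ST2+ and 4.28, 26.2, 0 and 9.37 CPM in TSLPR-ST2+ libraries, with overlapping gates (adjusted p = 0.587).

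Across the transcriptome, TSLPR+ST2+ Treg of cancer mice had higher levels of effector tissue Treg genes such as Icos, Id2 and Tigit, of the Treg core gene Capg and of the inhibitory receptor gene Pdcd1, and lower levels of genes of circulating and resting T cells such as Klf2, S1pr1 and Tcf7. Of 14861 genes tested, 475 passed at an adjusted p of 0.05 (3.20%), 204 higher (1.37%) and 271 lower (1.82%), with a median fold of 2.19 among the higher and 1.89 among the lower genes. In 4 of 4 mice the difference had the called direction for 167 of the higher and 234 of the lower genes. Such agreement is favoured by the selection, because the genes were called from the libraries of these mice. The gates did not overlap for 116 higher and 174 lower genes, while among all genes tested 3.40% did not overlap with the TSLPR+ST2+ libraries higher and 2.87% with them lower. The balance depends on the scaling, with 246 higher and 203 lower under RLE size factors, and with 516 and 411 in DESeq2. Of the higher genes 132 had their highest TSLPR+ST2+ value in mouse 7, and without that library 78 genes were higher and 144 lower. Without mouse 5, 62 genes were higher and 89 lower.

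The number of calls rests on sharing the spread among all 32 Treg libraries. With only the 8 libraries of the contrast 23 genes passed, 22 of them among the 475, and 1205 genes had an unadjusted p under 0.05 but 0 passed once the mouse was a block in those 8 libraries (edgeR, 3 residual degrees of freedom, smallest adjusted p 0.115). In that paired fit 435 of the 475 genes were tested and all 435 kept their sign. The same 8 libraries had set the direction of these calls, so the kept signs are no separate support for them. The mouse as a block in all 32 libraries gave 502 calls. When the mitochondrial share (log2) entered the fit, 79 genes passed, 52 of them among the 475. The 13 genes that passed with 32 libraries, with 8 libraries and with the mitochondrial covariate were Arl5a, Capg, Cd38, Cxcr6, Gm6637, Icos, Id2, Neb, Pdcd1, Rilpl2 and Samsn1, higher, and Klf2 and S1pr1, lower. Those outside the smallest p values were named after their values were seen.

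**Figure D3:**
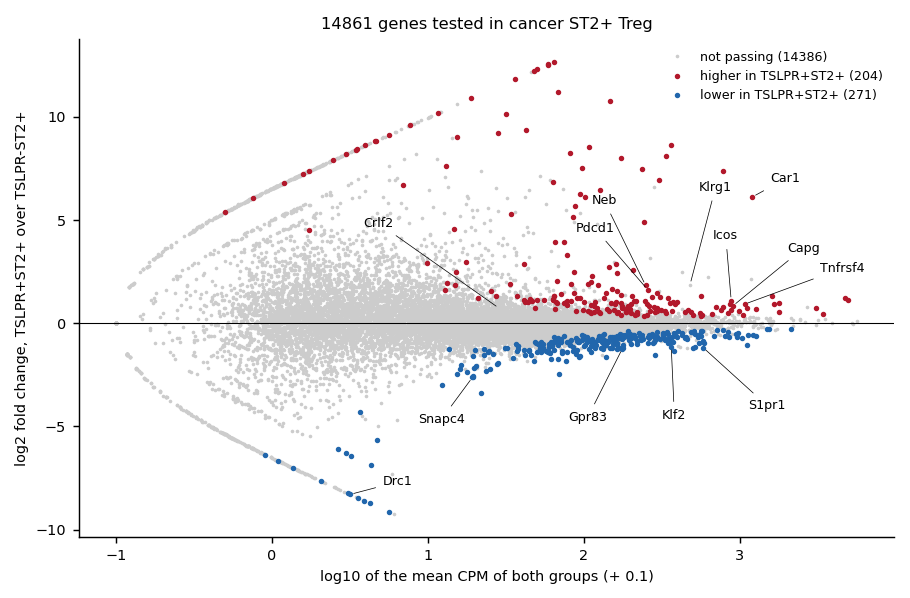
Each of 14861 genes by mean level (x axis, log10 of CPM + 0.1) and log2 fold change of TSLPR+ST2+ over TSLPR-ST2+ libraries (y axis), with the 204 higher genes in red and the 271 lower genes in blue. Points along the outer curves are genes with counts in 1 gate only, among them 22 of the higher and 10 of the lower genes, and their fitted fold changes depend on the prior count.

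Higher genes by smallest p were led by Capg, an actin-capping protein (chromosome 6, 72544391 to 72562983, + strand). It had 1362, 1006, 1217 and 1053 CPM in TSLPR+ST2+ and 624, 543, 759 and 655 CPM in TSLPR-ST2+ libraries, with no overlap. The difference was 1.80-fold (log2 0.85 ± 0.10, edgeR adjusted p = 2.93e-05). Samsn1, an adaptor protein with SH3 and SAM domains (chromosome 16, 75858793 to 76022281, - strand), had 504, 367, 387 and 476 CPM in TSLPR+ST2+ and 154, 221, 162 and 188 CPM in TSLPR-ST2+ libraries (2.39-fold, adjusted p = 9.21e-05). Neb, the giant filament protein nebulin of muscle (chromosome 2, 52136647 to 52378474, - strand), had 424, 239, 422 and 467 CPM in TSLPR+ST2+ and 137, 139.9, 64.0 and 92.9 CPM in TSLPR-ST2+ libraries (3.58-fold, adjusted p = 0.000175). Each of these separated the gates in 4 of 4 mice. Cd38, an ectoenzyme that breaks down NAD (chromosome 5, 43868553 to 43912375, + strand), had 131, 173, 262 and 104 CPM in TSLPR+ST2+ and 45.8, 48.1, 32.9 and 51.9 CPM in TSLPR-ST2+ libraries (3.75-fold, adjusted p = 0.000298). Rilpl2, a RILP-like protein that binds Rab GTPases, rose 2.31-fold, and the redox protein thioredoxin, Txn1, rose 2.42-fold with its highest level, 667 CPM, in mouse 7. Tmem256 rose 2.51-fold (adjusted p = 0.00138).

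Of 27 effector tissue Treg genes tested, 10 rose and 0 fell, where 1.37% of all genes were called higher. The median log2 fold change of the 27 was 1.19, against 0.02 over all genes tested. Without the TSLPR+ST2+ library of mouse 7, 6 of them rose, and without mouse 5, 3 did. The members that rose were Icos, Id2, Tigit, S100a6, Ccr8, Lgals1, Batf, Nfil3, Lgals3 and Fgl2. Icos, a costimulatory receptor of effector Treg (chromosome 1, 60977927 to 61000320, + strand), had 1112, 1185, 1515 and 986 CPM in TSLPR+ST2+ and 459.9, 711, 599.6 and 468 CPM in TSLPR-ST2+ libraries. All TSLPR+ST2+ libraries were above all TSLPR-ST2+ libraries (2.14-fold, log2 1.10 ± 0.17, edgeR adjusted p = 0.000357). Id2, which blocks E protein transcription factors (chromosome 12, 25093799 to 25097140, - strand), had 504, 327, 483 and 418 CPM in TSLPR+ST2+ and 122, 154, 149.5 and 202 CPM in TSLPR-ST2+ libraries (2.76-fold, adjusted p = 0.000567). Batf, an AP-1 factor of effector tissue Treg, had 339, 365, 499 and 318 CPM in TSLPR+ST2+ and 192, 285, 242 and 262 CPM in TSLPR-ST2+ libraries (1.55-fold, adjusted p = 0.0173). These 3 genes did not overlap between the gates. S100a6, a calcium-binding protein, had 370.1, 552, 712 and 312 CPM in TSLPR+ST2+ and 153, 165, 285 and 229 CPM in TSLPR-ST2+ libraries (2.34-fold, adjusted p = 0.00529). Lgals3, a galectin that epithelial cells also make, had 143, 109.5, 1088 and 66.1 CPM in TSLPR+ST2+ and 72.7, 50.2, 52.2 and 63.0 CPM in TSLPR-ST2+ libraries, with the high value in the library rich in epithelial markers. The part of that library's epithelial RNA in the value was not tested. Gata3, a factor of ST2+ Treg, had 147, 107, 123 and 151 CPM in TSLPR+ST2+ and 146, 84.8, 146 and 148 CPM in TSLPR-ST2+ libraries (adjusted p = 1.00), and Prdm1, which encodes Blimp-1, had 43.8, 36.0, 116 and 69.9 CPM in TSLPR+ST2+ and 28.5, 24.4, 37.6 and 27.4 CPM in TSLPR-ST2+ libraries (adjusted p = 0.177).

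Among 16 Treg core genes tested, Capg, Tnfrsf18, Ctla4 and Ikzf2 rose and Gpr83 fell, with a median of -0.01 on the log2 scale (0.03 with RLE). Over all genes tested, 1.37% were called higher and 1.82% lower. Ctla4, the inhibitory receptor through which Treg strip CD80 and CD86 from antigen-presenting cells (chromosome 1, 60887000 to 60915832, + strand), had 879.5, 1036, 1047 and 767 CPM in TSLPR+ST2+ and 654, 632, 493 and 572 CPM in TSLPR-ST2+ libraries (1.59-fold, log2 0.67 ± 0.11, edgeR adjusted p = 0.000624). Ikzf2, which encodes Helios (chromosome 1, 69531214 to 69687245, - strand), had 1251, 1200.2, 1001 and 1078 CPM in TSLPR+ST2+ and 455, 751, 702 and 461 CPM in TSLPR-ST2+ libraries (1.91-fold, adjusted p = 0.00083). Neither overlapped between the gates. Gpr83, an orphan-type receptor enriched in Treg, had 167, 67.5, 70.8 and 117 CPM in TSLPR+ST2+ and 264, 211, 240.1 and 273 CPM in TSLPR-ST2+ libraries (2.34-fold lower, adjusted p = 0.000624). Of 17 suppressive and repair products Ctla4, Lgals1, Ebi3 and Fgl2 rose and 0 fell, at a median of 1.38. In this list 2 genes rose without mouse 5 and 2 with the mitochondrial covariate, while DESeq2 called 6 higher and voom 7. Ebi3, a subunit of IL-35 and IL-27, had 36.6, 65.1, 46.3 and 64.2 CPM in TSLPR+ST2+ and 16.7, 22.6, 17.9 and 26.7 CPM in TSLPR-ST2+ libraries (adjusted p = 0.0208). Fgl2, a secreted immunoregulator, had 131, 102, 143 and 133 CPM in TSLPR+ST2+ and 68.6, 26.0, 38.9 and 47.7 CPM in TSLPR-ST2+ libraries (adjusted p = 0.0474). Il10 was higher in TSLPR+ST2+ libraries of 4 of 4 mice, at 119, 89.4, 82.6 and 4.56 CPM against 0.134, 38.3, 9.37 and 0.413 CPM in TSLPR-ST2+ libraries, but it overlapped and did not pass (adjusted p = 0.233). Itgb8, an integrin chain that activates TGF-beta, had 69.8, 39.6, 71.7 and 32.3 CPM in TSLPR+ST2+ and 17.8, 37.2, 17.7 and 2.20 CPM in TSLPR-ST2+ libraries (adjusted p = 0.113).

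Of 16 inhibitory receptors tested, Pdcd1, Ctla4 and Tigit rose and 0 fell, with a median log2 fold change of 0.94. Over all genes tested, 1.37% were called higher and 1.82% lower. In this list 2 genes rose without mouse 5 and 2 with the mitochondrial covariate, while DESeq2 called 3 higher and voom 7. Pdcd1, which encodes PD-1 (chromosome 1, 94038305 to 94052553, - strand), had 439.9, 336, 371 and 401 CPM in TSLPR+ST2+ and 146, 154, 71.7 and 127 CPM in TSLPR-ST2+ libraries. The lowest TSLPR+ST2+ library was above the highest TSLPR-ST2+ library (3.10-fold, log2 1.63 ± 0.26, edgeR adjusted p = 0.000567). Tigit, a receptor for CD155 (chromosome 16, 43648867 to 43664146, - strand), had 249, 222, 291 and 207 CPM in TSLPR+ST2+ and 58.5, 91.8, 101 and 75.9 CPM in TSLPR-ST2+ libraries (2.96-fold, adjusted p = 0.00469). Of 17 members of the TNF receptor and CD28 families, Icos, Tnfrsf18, Tnfrsf4 and Tnfrsf9 rose, 0 fell, and the median was 0.12. Tnfrsf4, which encodes OX40 (chromosome 4, 156013843 to 156016612, + strand), had 1441, 1406, 1633 and 1128 CPM in TSLPR+ST2+ and 759.9, 728, 721 and 747 CPM in TSLPR-ST2+ libraries (1.90-fold, adjusted p = 0.00121). Tnfrsf18, which encodes GITR, had 527, 554, 609 and 580.4 CPM in TSLPR+ST2+ and 378, 389.5, 340.3 and 325 CPM in TSLPR-ST2+ libraries (1.58-fold, adjusted p = 0.000624). Tnfrsf9, which encodes 4-1BB, had 534, 506, 462 and 498 CPM in TSLPR+ST2+ and 279.7, 229, 289 and 192 CPM in TSLPR-ST2+ libraries (2.02-fold, adjusted p = 0.0109). None of these 5 receptors overlapped between the gates.

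**Figure D4:**
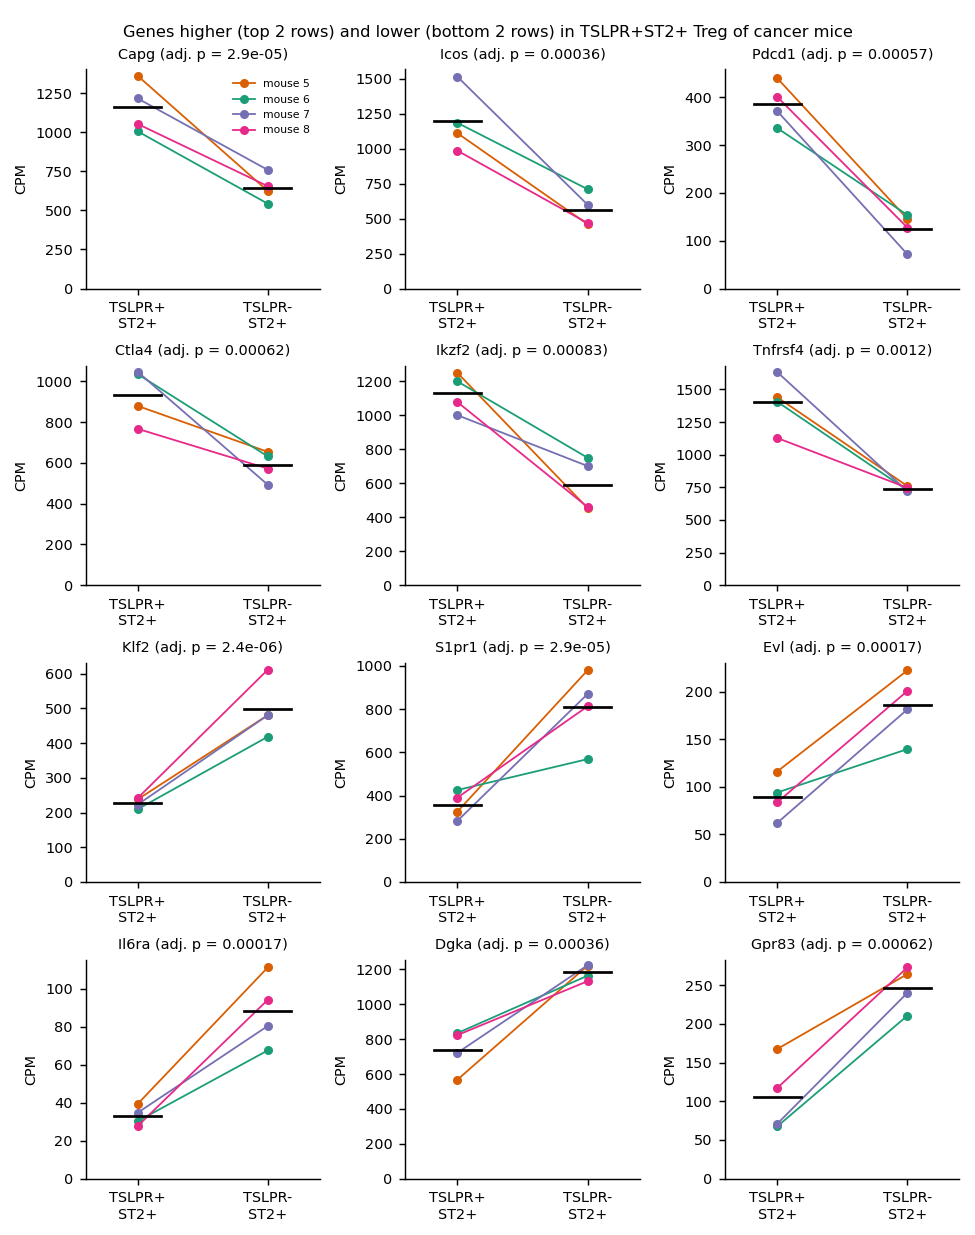
TMM-scaled CPM of 12 genes in cancer ST2+ Treg by gate (x axis) and mouse (colour), with black bars for the mean of 4 libraries. The 6 genes of the upper rows are higher and the 6 genes of the lower rows are lower in the TSLPR+ST2+ gate of all 4 mice, with Klf2 between 209 and 241 CPM in TSLPR+ST2+ and between 418 and 611 CPM in TSLPR-ST2+ libraries.

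Of 17 genes of naive and central T cells tested, 11 fell and 0 rose, where 1.82% of all genes were called lower. The median log2 fold change of the 17 was -0.74. Among the 11 were Klf2, S1pr1, Il6ra, Tcf7, Lef1, Foxo1, Satb1, Foxp1, Ccr7 and Igfbp4. Of the list, 8 genes fell without the TSLPR+ST2+ library of mouse 7, 7 without mouse 5 and 4 with the mitochondrial covariate. Klf2 had the smallest p of all genes tested (chromosome 8, 72319033 to 72321656, + strand). Its levels were 238, 209, 223 and 241 CPM in TSLPR+ST2+ and 480.4, 418, 480.4 and 611 CPM in TSLPR-ST2+ libraries. Every TSLPR+ST2+ library lay below every TSLPR-ST2+ library (2.18-fold lower, log2 -1.13 ± 0.12, edgeR adjusted p = 2.43e-06). S1pr1 (chromosome 3, 115710433 to 115715072, - strand) had 326, 425, 283 and 390.1 CPM in TSLPR+ST2+ and 979.5, 568, 869.6 and 813 CPM in TSLPR-ST2+ libraries (2.27-fold lower, adjusted p = 2.93e-05). Foxo1, a factor that drives Klf2, had 249, 227, 221 and 223 CPM in TSLPR+ST2+ and 386, 328, 346 and 383 CPM in TSLPR-ST2+ libraries (1.57-fold lower, adjusted p = 0.00439). Tcf7, a factor of resting and memory T cells, had 309, 346, 189 and 433 CPM in TSLPR+ST2+ and 880.1, 539.5, 560.3 and 850.0 CPM in TSLPR-ST2+ libraries (2.22-fold lower, adjusted p = 0.00123). Ccr7, the receptor that guides T cells into lymph nodes, had 509, 525, 209 and 420.0 CPM in TSLPR+ST2+ and 882, 575, 608 and 939 CPM in TSLPR-ST2+ libraries (1.81-fold lower, adjusted p = 0.0219).

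Promoters are shown for Klf2, the gene with the smallest p, and for Pdcd1, among the higher genes that passed in all 3 fits above. Each run is the 250 bases before the RefSeq start site (GRCm38.p6), 5′ to 3′ on the gene's strand, with capitals for CACCC or its reverse complement GGGTG, the core that KLF factors bind. The Klf2 run is chr8:72318812-72319061 (+ strand) and the Pdcd1 run is chr1:94052554-94052803 (- strand).
Klf2: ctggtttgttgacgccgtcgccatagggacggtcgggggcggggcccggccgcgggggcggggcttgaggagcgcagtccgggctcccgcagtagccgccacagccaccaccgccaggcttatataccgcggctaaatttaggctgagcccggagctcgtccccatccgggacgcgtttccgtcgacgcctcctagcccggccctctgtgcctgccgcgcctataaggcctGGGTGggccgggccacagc
Pdcd1: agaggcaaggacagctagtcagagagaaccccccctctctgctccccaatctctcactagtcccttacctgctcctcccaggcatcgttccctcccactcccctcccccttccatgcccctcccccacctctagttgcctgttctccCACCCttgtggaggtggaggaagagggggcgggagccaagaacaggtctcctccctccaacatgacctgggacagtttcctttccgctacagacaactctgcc
Each holds 1 match. The 5 letters were found on either strand in 56.6% of the 8889 tested genes with such a promoter, in 54.6% of 130 higher and in 55.3% of 197 lower genes. The AP-1 motif TGANTCA reads the same on both strands. It was in 4.05% of the 8889 promoters, in 11 of 130 higher (8.46%) and in 4 of 197 lower genes (2.03%), and in neither of the runs shown. Of the 11 higher genes with this motif, 10 had their highest TSLPR+ST2+ value in mouse 7, Muc13 and Guca2a of colon epithelium among them, and 3 of the 11 passed without that library. A match is a description of these letters and not a binding site.

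Further lower genes by smallest p had roles outside homing. Evl, an Ena/VASP regulator of actin, had 116, 94.0, 62.0 and 83.6 CPM in TSLPR+ST2+ and 222, 139.5, 181 and 201 CPM in TSLPR-ST2+ libraries (2.09-fold lower, edgeR adjusted p = 0.000175). Dnajb1, an HSP40 co-chaperone, had 244, 297, 288 and 303 CPM in TSLPR+ST2+ and 469.8, 408, 445 and 486 CPM in TSLPR-ST2+ libraries (1.60-fold lower, adjusted p = 0.000175). It is on the list of immediate early and heat shock genes, which tissue dissociation is known to raise. Of its 18 genes 1 rose (Dusp1, not without the TSLPR+ST2+ library of mouse 7) and 1 fell (Dnajb1). Among all genes tested 1.37% were called higher and 1.82% lower. Snapc4, a subunit of the complex that transcribes small nuclear RNA genes (chromosome 2, 26362765 to 26380653, - strand), had 2.23, 8.96, 2.27 and 7.60 CPM in TSLPR+ST2+ and 29.0, 33.1, 41.0 and 29.1 CPM in TSLPR-ST2+ libraries (6.18-fold lower, adjusted p = 0.000175). Dgka, a diacylglycerol kinase that restrains T cell receptor signalling (chromosome 10, 128720134 to 128744855, - strand), had 567, 835, 722 and 823 CPM in TSLPR+ST2+ and 1221, 1164, 1224 and 1132 CPM in TSLPR-ST2+ libraries (1.61-fold lower, adjusted p = 0.000357). Mthfd1, an enzyme of folate metabolism, had 26.7, 34.2, 32.9 and 33.8 CPM in TSLPR+ST2+ and 102, 63.6, 59.6 and 115 CPM in TSLPR-ST2+ libraries (2.66-fold lower, adjusted p = 0.000628). The gates did not overlap for any of these 5 genes. Acp5, a tartrate-resistant phosphatase, fell 1.72-fold, Atp1b3, a sodium pump subunit, 1.51-fold, Slc17a9, a nucleotide transporter, 2.34-fold, Ripor2, an inhibitor of RhoA, 1.87-fold and Capn3, a calpain, 2.88-fold.

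In the lists for pathways of the sorted receptors themselves 3 of 17, 2 of 16 and 0 of 20 genes passed. Most of those calls were lost with the mitochondrial covariate, as were most calls of the contrast, of which 52 of 475 were kept. The mitochondrial share was higher in the TSLPR+ST2+ gate of 4 of 4 mice, so this covariate runs along with the gate. Of 17 type I cytokine receptor genes, Il6ra, Jak1 and Il21r fell and 0 rose, at a median log2 fold change of -0.43, where 1.82% of all genes were called lower. With the mitochondrial covariate 1 gene of this list was lower, Il6ra, 1 was higher, and the median was 0.04, while DESeq2 called 5 lower and 1 higher. Il6ra, the IL-6 receptor chain, had 39.3, 30.3, 34.7 and 27.7 CPM in TSLPR+ST2+ and 111, 67.6, 80.5 and 94.2 CPM in TSLPR-ST2+ libraries (2.68-fold lower, edgeR adjusted p = 0.000175). Jak1, a kinase used by many cytokine receptors, the TSLP receptor among them, had 708, 614, 480.5 and 809 CPM in TSLPR+ST2+ and 1096, 917, 1034 and 1119.9 CPM in TSLPR-ST2+ libraries (1.60-fold lower, adjusted p = 0.00419). Il7r, the partner chain of TSLPR, had 712, 604, 533 and 588 CPM in TSLPR+ST2+ and 351, 536, 536 and 525 CPM in TSLPR-ST2+ libraries and overlapped (adjusted p = 0.349). Of 16 STAT5 target and feedback genes, Socs3 and Myc fell and 0 rose, at a median of -0.41. With the mitochondrial covariate 0 of the 16 passed in edgeR and the median was -0.04, and DESeq2 called 3 lower and 1 higher. Socs3, a feedback inhibitor of cytokine signalling, had 69.5, 27.1, 66.3 and 106 CPM in TSLPR+ST2+ and 301, 108, 116 and 308 CPM in TSLPR-ST2+ libraries (3.09-fold lower, adjusted p = 0.00693), and Cish, a canonical STAT5 target, had 208, 147, 149 and 218 CPM in TSLPR+ST2+ and 219, 170.3, 177 and 307 CPM in TSLPR-ST2+ libraries (adjusted p = 0.43). Stat5b had 76.0, 70.1, 125 and 189 CPM in TSLPR+ST2+ and 322, 137, 159 and 265 CPM in TSLPR-ST2+ libraries (adjusted p = 0.0917), and Il2ra, the IL-2 receptor alpha chain, had 314, 256, 354 and 322 CPM in TSLPR+ST2+ and 210.5, 302, 365 and 323 CPM in TSLPR-ST2+ libraries (adjusted p = 0.912). Of 20 genes of IL-33, IL-1 and IL-18 signalling 0 passed in edgeR, DESeq2 or voom, 3 had an unadjusted p under 0.05 in edgeR, and the median was -0.02 (0.02 with RLE). Il18r1, which neighbours Il1rl1, had 58.4, 64.5, 71.0 and 51.9 CPM in TSLPR+ST2+ and 38.1, 44.5, 85.2 and 97.8 CPM in TSLPR-ST2+ libraries.

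Homing and adhesion genes moved in both directions, where 1.37% of all genes tested were called higher and 1.82% lower. Of 21 chemokine, homing and egress receptors, Ccr8 and Cxcr6 rose while 4 fell, among them S1pr1, Ccr7 and Selplg. Ccr8, a chemokine receptor of tissue and tumour Treg (chromosome 9, 120092114 to 120094906, + strand), had 158, 157, 176 and 96.6 CPM in TSLPR+ST2+ and 11.9, 23.0, 45.4 and 25.2 CPM in TSLPR-ST2+ libraries (5.56-fold, edgeR adjusted p = 0.00529). Cxcr6, the CXCL16 receptor of tissue T cells (chromosome 9, 123806475 to 123811760, + strand), had 185, 158, 226 and 176 CPM in TSLPR+ST2+ and 55.3, 19.9, 32.3 and 42.4 CPM in TSLPR-ST2+ libraries (4.96-fold, adjusted p = 0.0168). Both were apart in 4 of 4 mice. Of 17 integrins and adhesion molecules, Cd81 rose and Itga6, Cd9, Itgb1 and Itgb7 fell. Itgb7, the beta chain of the gut homing integrin, had 562, 855, 771 and 963 CPM in TSLPR+ST2+ and 1421, 1000.3, 1085 and 1629 CPM in TSLPR-ST2+ libraries (1.63-fold lower, adjusted p = 0.015). Itgae, its partner CD103 on tissue T cells, had 379, 250.3, 418 and 317 CPM in TSLPR+ST2+ and 343, 186, 280.2 and 302 CPM in TSLPR-ST2+ libraries and did not pass (adjusted p = 0.588). Cd81, a tetraspanin, had 277, 310.4, 280.1 and 296 CPM in TSLPR+ST2+ and 190.1, 134, 86.4 and 144 CPM in TSLPR-ST2+ libraries (2.10-fold, adjusted p = 0.000613), and Cd9, another tetraspanin, fell 1.73-fold.

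Maf, a factor of RORgt+ colon Treg, had 284, 326, 297 and 243 CPM in TSLPR+ST2+ and 91.1, 177, 133 and 136 CPM in TSLPR-ST2+ libraries (2.14-fold, edgeR adjusted p = 0.0028). On the list of 12 tested genes of peripheral colon Treg and Th17 cells, Maf and Cxcr6 rose and 0 fell. For this and the following lists, 1.37% of all genes tested were called higher and 1.82% lower. Of 19 genes of T cell receptor activation, Tnfrsf9 rose while 3 fell, among them Myc and Cd6. Without the TSLPR+ST2+ library of mouse 7, 0 genes of this list were called lower in edgeR, and with the mitochondrial covariate 0 passed in either direction. In the glucocorticoid list of 11, Dusp1 rose and Tsc22d3 and Txnip fell, of which Tsc22d3 passed without the TSLPR+ST2+ library of mouse 7. Tsc22d3, which encodes the glucocorticoid-induced leucine zipper, had 332, 396, 271 and 343 CPM in TSLPR+ST2+ and 626, 473, 540.1 and 667 CPM in TSLPR-ST2+ libraries (adjusted p = 0.00123). The glycolysis list of 15 had Tpi1 and Gapdh higher, at 1.78-fold and 1.35-fold, of which Gapdh passed without that library. Of 20 interferon response genes, of 20 proliferation genes and of 19 cholesterol and lipid synthesis genes 0 passed by edgeR, with medians of -0.20, 0.26 and -0.14. An unadjusted p under 0.05 was seen for 5, 0 and 2 of them, and DESeq2 called 1, 0 and 1, in the order given. Mki67, a marker of cycling cells, had 44.0, 36.2, 58.6 and 44.4 CPM in TSLPR+ST2+ and 15.8, 20.2, 14.0 and 64.6 CPM in TSLPR-ST2+ libraries, and Irf7, which drives interferon genes, had 282, 311, 429 and 420.0 CPM in TSLPR+ST2+ and 392, 361, 354 and 419 CPM in TSLPR-ST2+ libraries. Of 13 Th1 genes Ly6c1 fell (2.32-fold, adjusted p = 0.00357), and of 9 Th2 genes Ccr8 and Maf rose. Of 20 MAP kinase phosphatase and AP-1 genes Batf and Dusp1 rose, but without the TSLPR+ST2+ library of mouse 7 neither passed (adjusted p = 0.104 and 0.0694). Of 14 survival genes and 12 nuclear long noncoding RNA and helicase genes 0 passed in edgeR or DESeq2 (4 and 2 with an unadjusted p under 0.05 in edgeR).

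**Figure D5:**
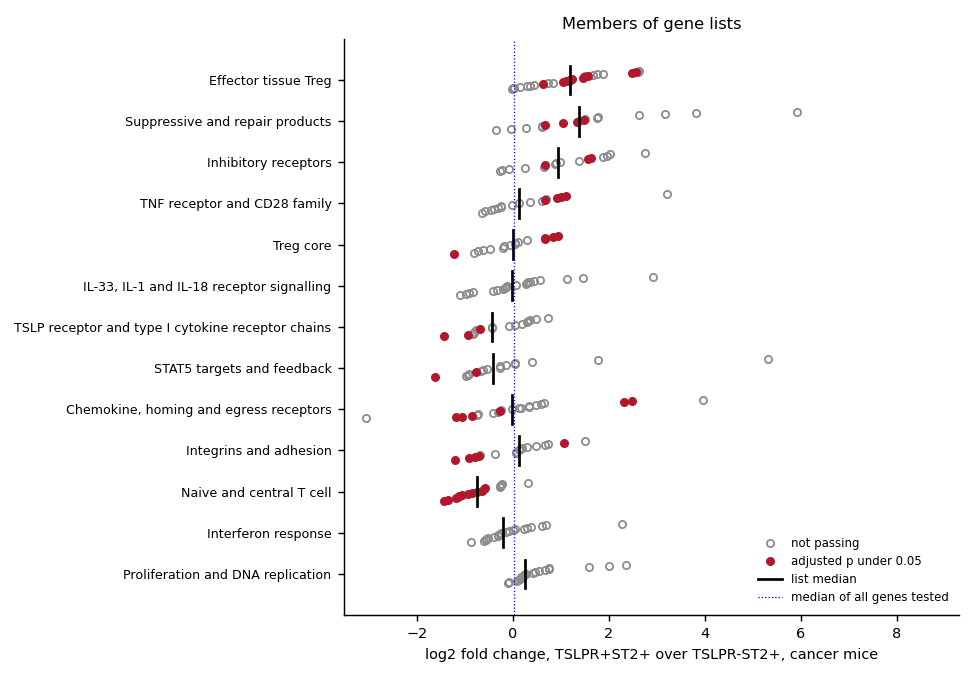
Log2 fold changes (x axis) of tested members of 13 gene lists (rows), TSLPR+ST2+ over TSLPR-ST2+ in cancer mice, with filled points for adjusted p under 0.05, a black bar for the list's median and a dotted line for the median of all genes. Filled points lie right of 0 for 10 effector tissue Treg genes and left of 0 for 11 naive and central T cell genes.

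Among markers of other cells, 6 of 11 tested epithelial genes were called higher, 3 of 12 B and plasma cell genes (Cd79b, Ighm and Cd79a) and 0 of 16 macrophage and dendritic cell genes (3 with an unadjusted p under 0.05, 1 called in DESeq2). The 6 epithelial genes were Phgr1, Epcam, Lypd8, Car1, Fabp2 and Krt20. Over all genes tested, 1.37% were called higher and 1.82% lower. Without the TSLPR+ST2+ library of mouse 7, 0 epithelial genes passed in edgeR. Ighm, the IgM heavy chain, had 1920.2, 2061, 2271 and 2129.7 CPM in TSLPR+ST2+ and 1598, 1392, 1292 and 1549.5 CPM in TSLPR-ST2+ libraries, and Cd79b, a chain of the B cell receptor, had 155, 309, 95.6 and 149 CPM in TSLPR+ST2+ and 22.9, 60.7, 48.5 and 44.4 CPM in TSLPR-ST2+ libraries. One stromal and endothelial marker fell, Pecam1 (1.83-fold), and 1 helper cytokine gene, Cd40lg, had 42.3, 42.4, 42.0 and 32.8 CPM in TSLPR+ST2+ and 115, 57.5, 88.5 and 79.6 CPM in TSLPR-ST2+ libraries (adjusted p = 0.0398). Of the 3 neutrophil, 3 mast cell and basophil, 6 ILC2 and 7 CD8, NK and gamma-delta T cell markers tested 0 passed in edgeR or DESeq2 (0, 1, 1 and 1 with an unadjusted p under 0.05 in edgeR). The part of RNA from other cells in the genes above was not tested beyond leaving out that library.

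The same contrast in naive mice called 183 genes (1.23%), 103 higher (0.693%) and 80 lower (0.538%). Of the cancer calls 41 were higher in both (20.1% of the cancer and 39.8% of the naive list) and 30 lower in both (11.1% and 37.5%). Klf2 was lower in naive mice too, at 293, 274, 271 and 314 CPM in TSLPR+ST2+ against 488, 549, 529 and 553 CPM in TSLPR-ST2+ libraries (1.84-fold, edgeR adjusted p = 6.37e-05). Icos rose 2.37-fold and Pdcd1 2.91-fold there. A test of the difference between the contrasts called 4 genes of 14861 (0.0269%), 1 higher (0.00673%) and 3 lower (0.0202%), so passing in cancer mice alone does not show that the contrast differs. Sik2, a salt-inducible kinase, had 58.6, 57.3, 51.1 and 58.8 CPM in TSLPR+ST2+ and 19.0, 41.9, 26.5 and 15.7 CPM in TSLPR-ST2+ libraries of cancer mice. In naive mice it had 21.5, 21.3, 26.2 and 9.90 CPM in TSLPR+ST2+ and 55.8, 59.2, 24.1 and 46.8 CPM in TSLPR-ST2+ libraries, so the group means ran in opposite directions (difference 2.37 ± 0.43 on the log2 scale, adjusted p = 0.0491). Dctn1, a dynactin subunit, had 34.4, 22.7, 19.7 and 23.0 CPM in TSLPR+ST2+ and 65.7, 33.4, 60.6 and 95.8 CPM in TSLPR-ST2+ libraries of cancer mice. In naive mice it had 69.9, 91.3, 83.6 and 69.9 CPM in TSLPR+ST2+ and 51.8, 56.6, 71.3 and 61.0 CPM in TSLPR-ST2+ libraries (difference -1.75 ± 0.32, adjusted p = 0.0491). Dusp5, a phosphatase that turns off ERK, had 54.4, 47.8, 56.3 and 40.0 CPM in TSLPR+ST2+ and 80.7, 70.9, 53.9 and 59.4 CPM in TSLPR-ST2+ libraries of cancer mice. In naive mice it had 138, 161, 169.9 and 184 CPM in TSLPR+ST2+ and 69.3, 74.2, 125 and 90.3 CPM in TSLPR-ST2+ libraries (difference -1.28 ± 0.24, adjusted p = 0.0491). Zfp940, a zinc finger gene, had 0 counts in 4 of 4 TSLPR+ST2+ libraries of cancer mice and 223 counts over the TSLPR-ST2+ libraries, or at least 53.7-fold lower with a floor of 3 counts over the group. In naive mice it had 18.9, 23.8, 13.1 and 5.29 CPM in TSLPR+ST2+ and 17.2, 5.57, 1.14 and 4.32 CPM in TSLPR-ST2+ libraries. With RLE size factors 0 of 14861 genes passed in edgeR, 1784 had an unadjusted p under 0.05, and DESeq2 called 123. With the mouse as a block in 32 libraries 0 genes were higher and 3 lower, Dctn1 and Dusp5 among them, so the calls of Sik2 and Zfp940 were lost, and voom called 0 (1914 with an unadjusted p under 0.05).

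Between TSLPR+ST2- and TSLPR-ST2- Treg of the same cancer mice 136 genes were called (0.915%), 92 higher (0.619%) and 44 lower (0.296%). Of the ST2+ calls 30 were higher in both (14.7% of the ST2+ and 32.6% of the ST2- list) and 22 lower in both (8.12% and 50%). Klf2 fell 1.61-fold and S1pr1 1.92-fold there, and Icos rose 2.62-fold. Effector tissue Treg genes rose for 10 of 27 and naive and central T cell genes fell for 5 of 17 among ST2- Treg. The difference between the contrasts passed for 1 gene (0.00673%), lower, namely Drc1, which encodes a ciliary dynein regulator. Drc1 had 0 counts in 4 of 4 TSLPR+ST2+ libraries and 173 counts in TSLPR-ST2+ libraries of cancer mice. This is 41.7-fold lower with the same assumed floor, which again gives no bound. Its log2 fold change among ST2- Treg was 0.26 (edgeR adjusted p of the difference = 0.031). With the mouse as a block in 32 libraries 0 genes passed in edgeR for this difference (1181 with an unadjusted p under 0.05), as with voom. The Crlf2 contrast was 1.30 ± 0.26 on the log2 scale among ST2- Treg (adjusted p = 0.0125) and its difference from that among ST2+ Treg did not pass (-0.57 ± 0.37, adjusted p = 0.708).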

How the data were processed

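The deposited table holds raw counts per Ensembl gene (53465 genes, 53360 with a symbol) for 33 libraries, each column matched to a library by its label. Per the labels' protocols, 200 sorted cells were lysed, full-length cDNA was amplified (SMART-Seq v4), tagmented (Nextera XT) and read as 58-base single reads. The submitters' processing notes name HTSeq 0.4.1, Picard 1.134, FastQC 0.11.3, SAMtools 1.2 and build GRCm38. No label names the aligner, annotation release or strand setting, so reads of overlapping antisense genes cannot be told apart. Amplified reads carry no molecular identifiers. Gene positions are from GENCODE M21 and promoters from RefSeq.

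Counts were tested with edgeR 4.0.16 (R 4.3.3): TMM scaling, filterByExpr (minimum count 10, total 15), one mean per group over the 32 Treg libraries without a mouse term (24 residual degrees of freedom), robust quasi-likelihood F-tests, and Benjamini-Hochberg adjustment over 14861 genes at 0.05. Adjusted p values are from this test unless another fit is named, and values after ± are SE. CPM of genes use TMM-scaled totals and those of marker sums plain totals. The ranges of single T cell identity and marker genes given beside the library totals and marker sums also use plain totals, unless marked as TMM-scaled. Library measures had exact permutation tests of 4 against 4 libraries, which did not use the pairing by mouse. The scripts were tested on simulated data. The gates of a mouse come from 1 animal, so mouse numbers pair the libraries. Deviations of paired libraries from their group means had correlations of 0.00927, 0.0151, -0.00649 and 0.026 in mice 5 to 8. No libraries of a gate held identical counts.

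Genes named are Crlf2, Il1rl1 and Foxp3, the 15 higher and 15 lower with the smallest p and at least 10 CPM, up to 4 of each list and 5 each way for differences of contrasts. Other list members, and Klrg1, Penk and Areg, were chosen after their values were seen. Genes without an official name, pseudogenes, and mitochondrial, ribosomal and immune receptor segment genes were counted but not ranked. Not every gene chosen this way is reported here. Lists, groups and tests were chosen with earlier results of these data known. Alternatives were RLE scaling, DESeq2 1.42.0, limma 3.58.1 voom with mouse as a random effect, other count filters, each mouse left out, the mouse as a block, only the contrast's libraries, thinning to the smallest total, and a mitochondrial covariate. Leaving out the TSLPR+ST2+ library of mouse 7 or the ST2+ libraries of mouse 5, and the alternatives for library measures, were chosen after seeing the data.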

Additional observations from a re-analysis of the deposited data

Results flagged for a closer look

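A library far from the other 3 of its gate was looked for in 184 sets of 4, and 13 were found, where chance flags about 1 in 20. The TSLPR+ST2+ library of mouse 7 accounted for 7 of them. It was highest for the epithelial marker sum (18364 CPM, next 646 CPM), Car1 (9073, next 303 CPM), Lypd8 (5991, next 116 CPM), Phgr1 (1326, next 24.5 CPM) and Epcam (730, next 100.4 CPM). It was lowest for Txnip (597, next 748 CPM) and for the stromal and endothelial sum (45.2, next 89.9 CPM). The TSLPR-ST2+ library of mouse 7 was highest for Car1 (80.9, next 19.8 CPM) and lowest for the B and plasma cell sum (1396, next 1626 CPM). The TSLPR+ST2+ library of mouse 8 was lowest for Cd40lg (32.8, next 42.0 CPM), and its TSLPR-ST2+ library highest for the neutrophil sum (134, next 26.7 CPM). The TSLPR-ST2+ library of mouse 6 was highest for Cd79a (25.7, next 5.19 CPM) and lowest for Gata3 (84.8, next 146 CPM).

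By the tests of the difference itself (edgeR), the TSLPR contrast among ST2+ Treg, cancer minus naive, differed by 2.37 on the log2 scale for Sik2, by -1.75 for Dctn1, by -1.28 for Dusp5 and by a fitted -9.83 for Zfp940. In cancer mice, ST2+ minus ST2-, it differed by a fitted -8.55 for Drc1. The last 2 values rest on a group with 0 counts and depend on the prior count.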

How the results depend on the processing

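The contrast of cancer ST2+ Treg gave 449 calls with RLE, and with thinned libraries 476, with the replicate block in 32 libraries 502, with 10 CPM in a group 602 and with voom 411. It gave 927 calls in DESeq2, 272 without a count filter, 79 with the mitochondrial covariate, 23 with its 8 libraries, 0 with those and the replicate block, 222 without the TSLPR+ST2+ library of mouse 7 and 171 without the ST2+ libraries of mouse 5. Leaving out each of 8 mice gave 151 to 539, with 151 without mouse 5, 222 without mouse 7 and 295 to 308 without mouse 1, 2, 4 or 8. Of 68 named genes that passed, 68 kept their call with RLE, 66 with the block in 32 libraries, 46 without mouse 7, 52 without mouse 5, 31 with the mitochondrial covariate, 16 with 8 libraries and 0 with the block there. None of these 68 reversed. Of genes that did not pass, Il10 reversed with the mitochondrial covariate (-0.79), and Gata3 without a count filter (-0.0037), thinned (-0.0305) and without mouse 6 (-0.0602, the lowest with a mouse left out, the highest being 0.0905).

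The naive contrast moved to 448 in DESeq2, 446 with voom, 56 with its 8 libraries and 28 with the replicate block there, and 46 to 196 with a mouse left out (89, 74 and 46 without mouse 1, 2 or 4). Its difference from cancer gave 123 in DESeq2, 2 thinned, 1 with the mitochondrial covariate, 3 with the replicate block in 32 libraries, 0 with RLE, voom, no filter or only its libraries, with or without the replicate block (1016 to 2772 unadjusted p under 0.05 in edgeR and voom), and 0 to 13 with a mouse left out. The ST2- contrast gave 455 in DESeq2, 85 without a filter, 24 with its 8 libraries and the replicate block, and 27 to 154 with a mouse left out (90, 49, 86, 62 and 27 without mouse 4, 5, 6, 7 or 8). Its difference from ST2+ gave 123 in DESeq2, 5 with the mitochondrial covariate, 0 with voom, 10 CPM, the replicate block in 32 libraries and only its libraries with or without the block (751 to 1226 unadjusted p under 0.05), and 0 to 1 with a mouse left out. The causes were not tested. Of 13 library measures 4 were apart between the gates, 5 to 7 with a mouse left out, and 8 had the same direction in 4 of 4 mice, a comparison by replicate block.
Totals of 4038718 to 7589967 counts from 200 cells limit what can be seen of genes with few counts.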
